A study of Mus musculus with 24 samples.

Results

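The 10 genes Pcsk1, Pcsk2, Scg5, Pcsk1n, Cpe, Pam, Chga, Chgb, Scg2 and Scg3 encode the enzymes, their chaperone and inhibitor, and the granins through which dense-core vesicles turn neuropeptide precursors into active peptides. They were chosen by name for this shared role and not by a filter on their values, though earlier results of these data were known. Each matched 1 of the 47643 gene identifiers that were counted, and all 10 were among the 17178 genes with enough counts to be tested.

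RNA-seq compared FACS-sorted GFP-positive cells of L4 DRG between 4 control and 4 Nav-Tsc2 mice, with 2 males (replicates 1 and 2) and 2 females (replicates 3 and 4) in each genotype. All mice carried Nav1.8-Cre and the green reporter Rosa26-ZsGreen. At Tsc2 the control mice were flox/+ and the Nav-Tsc2 mice flox/null, so that Cre could also act on a floxed allele in controls. Both groups were of a mixed C57BL/6 and AJ background, and were 8 to 9 weeks old. Cre driven by Nav1.8, a sodium channel of nociceptors, recombines mainly in C-nociceptors but also in some myelinated neurons, while the null allele of Nav-Tsc2 mice is present in all of their cells. The DRG were contralateral to a sciatic nerve that had been crushed 3 d before, and mice without any crush were not analysed here. Each mouse contributed 3 technical libraries of 100 cells. Their counts were added up, and each mouse entered the tests as 1 sample. Tsc2 encodes the negative regulator of mTORC1 that was deleted.

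Libraries held between 8339220 and 34228180 counts on genes, and the mice between 47959617 and 61290435. Values are given as normalized CPM, counts scaled to the library total with TMM factors, and a gene was called when its adjusted p (edgeR's quasi-likelihood test with Benjamini-Hochberg adjustment) was under 0.05 and its log2 fold change over 0.5 or under -0.5. Tsc2 averaged 20.9 ± 5.18 CPM in control and 8.87 ± 1.52 CPM in Nav-Tsc2 mice (SD, n = 4), without overlap. Scn10a, which encodes Nav1.8, was at 670 ± 138 CPM and 608 ± 35.1 CPM (SD, n = 4), so the sorted cells of both genotypes held the transcript of the labelled population. Summed pan-neuronal markers lay between 17330 and 20990 CPM in control and between 19220 and 21540 CPM in Nav-Tsc2 mice, with 3 of 10 called. Summed markers of satellite glia and Schwann cells lay between 3105 and 3247 CPM in control and between 2075 and 2677 CPM in Nav-Tsc2 mice. Of the 13 tested genes 1 was called lower, and their median log2 fold change was 0.08, so most of these markers did not follow the lower sum. The part of these cells in the results that follow was not tested.

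A neuropeptide is first made as a long inactive precursor that enters the regulated secretory pathway. Prohormone convertases cut the precursor after pairs of basic residues, a carboxypeptidase trims the exposed basic residues, and an amidating enzyme converts a C-terminal glycine into the amide that many peptides, CGRP and substance P among them, need for activity. Granins are acidic proteins that aggregate in the trans-Golgi network, help to form dense-core vesicles and are themselves cut into peptides. Peptidergic nociceptors release such peptides at their peripheral and central terminals.

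Promoter windows from RefSeq (GRCm38.p6, 250 bases before to 50 bases after each start) were found for 9 of the 10 genes, all but Cpe. The palindrome TGACGTCA, the cAMP response element that is bound by CREB-family factors, was present in the windows of 3 of these genes and in 1.79% of all 32851 windows. Its first base lay at position -78 in Pcsk1, -72 in Chgb and -68 in Scg2, counted with -1 as the base just before the start. The following stretches from position -130 to -11 show these 3 elements in capitals, together with Chga, where the capitals mark the 5 letters TGACG at position -44 of a site that differs from the palindrome. They are chr13:75089727-75089846 (+ strand) for Pcsk1, chr2:132781512-132781631 (+ strand) for Chgb, chr1:79440037-79440156 (- strand) for Scg2 and chr12:102554811-102554930 (+ strand) for Chga.
Pcsk1: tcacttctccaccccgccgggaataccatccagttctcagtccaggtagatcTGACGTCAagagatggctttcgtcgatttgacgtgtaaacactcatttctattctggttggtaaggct
Chgb: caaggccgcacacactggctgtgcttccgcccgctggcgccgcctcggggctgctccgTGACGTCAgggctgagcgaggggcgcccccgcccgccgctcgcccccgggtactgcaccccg
Scg2: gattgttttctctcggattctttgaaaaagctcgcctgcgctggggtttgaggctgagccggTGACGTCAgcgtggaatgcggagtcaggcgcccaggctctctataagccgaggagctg
Chga: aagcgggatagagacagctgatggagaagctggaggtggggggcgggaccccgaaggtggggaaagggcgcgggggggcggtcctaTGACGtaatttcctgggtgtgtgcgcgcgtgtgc

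The 5 letters TGACG, searched on both strands, were found in 7 of the 9 genes (Chga, Chgb, Pcsk1, Pcsk2, Scg2, Scg3 and Scg5) and in 20.8% of all windows, and each full palindrome holds 2 overlapping copies of them. The GC box GGGCGG, searched on both strands, was present in 7 genes against 35.7% of all windows. The E-box CACGTG was in none of the windows of these genes and in 7.15% of all windows, and TATAAA on the strand of the gene was in Chga alone and in 8.32% of all windows. These matches describe letters only. The palindrome, TGACG, the GC box and the E-box each hold a CG. The windows of these genes held from 9 (Scg5) to 38 (Pam) CG pairs, beside a median of 7 over all windows. The part of base composition in these shares was not tested. The 3 genes with the palindrome differed in what was measured, since Scg2 fell, Chgb rose and Pcsk1 was not called, as given below.

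Of the 10 genes, 5 were called between genotypes, against 17.1% of all genes tested. Scg5 and Scg2 fell (8.00% of all genes tested were called lower), while Pcsk1n, Cpe and Chgb rose (9.12% of all genes tested were called higher). These 5 genes were also the ones whose genotypes did not overlap (26.9% of all genes), 2 with all Nav-Tsc2 mice below all control mice (12.3% of all genes) and 3 with all above (14.6% of all genes). The median log2 fold change of the 10 genes was -0.08, beside 0.01 for all genes tested. Summed over the 10 genes, the level was 3568 ± 225 CPM in control and 3505 ± 67.7 CPM in Nav-Tsc2 mice (SD, n = 4), and each of the 5 calls was kept in all 16 other fits.

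**Figure D1:**
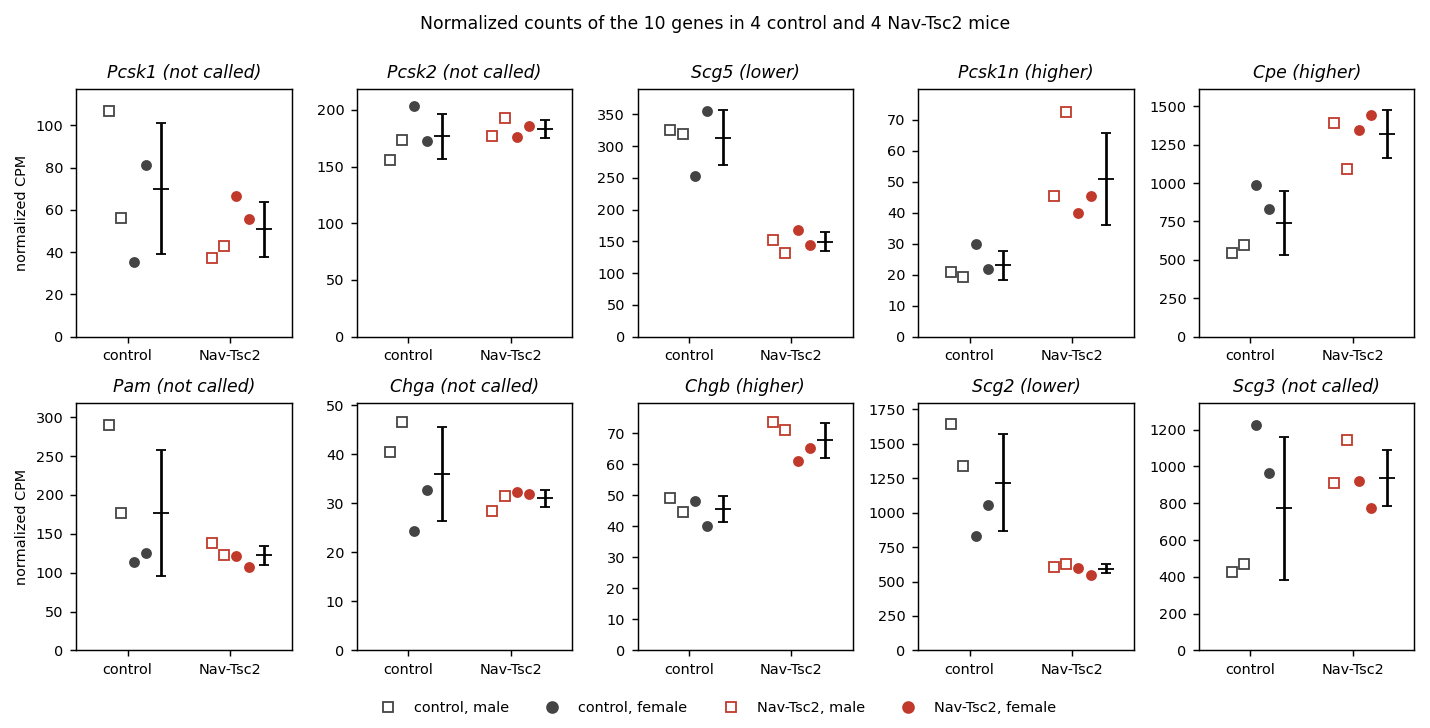
Normalized CPM (vertical axes, starting at 0) of the 10 genes in each control (gray) and Nav-Tsc2 (red) mouse, males as open squares and females as filled circles, with the mean and SD of 4 mice at the right of each group. Scg5 and Scg2 lay lower and Pcsk1n, Cpe and Chgb higher in all 4 Nav-Tsc2 mice than in any control mouse, whereas the genotypes overlapped in the other 5 genes.

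The convertases themselves were not called. Pcsk1 (chr13:75089826-75134861, + strand, GRCm38), the convertase that acts first in the secretory pathway, was at 107, 56.3, 35.3 and 81.25 CPM in control mice 1 to 4 and at 37.4, 43.1, 66.8 and 55.7 CPM in Nav-Tsc2 mice 1 to 4. Control mouse 3 held the lowest and control mouse 1 the highest of these values, so the Nav-Tsc2 mice lay inside the control range, with a log2 difference of -0.46 (SE 0.31, adjusted p = 0.342, edgeR). Pcsk2 (chr2:143546156-143816285, + strand), the convertase that completes the cutting of many precursors, was at 156, 173.5, 204 and 173 CPM in control and at 177, 193, 176 and 186 CPM in Nav-Tsc2 mice. The Pcsk2 groups overlapped and differed by 0.05 on the log2 scale (SE 0.09, adjusted p = 0.749, edgeR). Of the Pcsk2 exon length, 4.54% is shared with antisense genes, and the strand setting of the counting is not given in the sources used here.

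The partner proteins of the convertases moved in opposite directions. Scg5 (chr2:113776362-113829121, - strand) encodes the chaperone that Pcsk2 needs to mature into an active enzyme. It was at 326, 319, 253 and 356 CPM in control and at 153, 132, 168 and 145 CPM in Nav-Tsc2 mice. Every Nav-Tsc2 mouse lay well under the lowest control mouse, and Scg5 fell 2.10-fold, with a log2 fold change of -1.07 (SE 0.12, adjusted p = 0.000381, edgeR). Values in CPM are relative to all counts of a sorted pool. Fewer cells of a type, less of a transcript per cell and more of other RNA per cell cannot be told apart. Pcsk1n (chrX:7919822-7924410, + strand) encodes proSAAS, a granin-like protein whose peptides inhibit the Pcsk1 convertase. It was at 21.0, 19.4, 29.8 and 21.7 CPM in control and at 45.4, 72.6, 40.0 and 45.5 CPM in Nav-Tsc2 mice. All Nav-Tsc2 mice were above all control mice, with Nav-Tsc2 mouse 2 standing above the others, and Pcsk1n rose 2.22-fold (log2 fold change 1.15, SE 0.21, adjusted p = 0.00473, edgeR). Without Nav-Tsc2 mouse 2 the log2 fold change of Pcsk1n was 0.92 (adjusted p = 0.00855), within a range of 0.92 to 1.29 over the other fits, whose adjusted p reached 0.0252. Of the Pcsk1n exon length, 6.16% is shared with Eras on the other strand.

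The enzymes that act after the convertases differed from each other. Cpe (chr8:64592542-64693054, - strand) encodes carboxypeptidase E, which trims basic residues from cut precursors. It was at 544, 597, 988 and 829.8 CPM in control and at 1389, 1094, 1346 and 1445 CPM in Nav-Tsc2 mice. The groups were separate, with a gap from 988 to 1094 CPM between the nearest mice, and Cpe rose 1.78-fold (log2 fold change 0.83, SE 0.18, adjusted p = 0.0116, edgeR). Pam (chr1:97795114-98095646, - strand) encodes the copper- and ascorbate-dependent enzyme that amidates peptides. It was at 291, 177, 113 and 125 CPM in control and at 138, 122, 122 and 107 CPM in Nav-Tsc2 mice. The male control mice 1 and 2 were above every Nav-Tsc2 mouse and the female control mice were not, and Pam was not called at a log2 difference of -0.53 (SE 0.27, adjusted p = 0.196, edgeR; log2 difference between -0.70 and -0.18 over the other fits).

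Among the granins 1 fell, 1 rose and 2 were not called. Scg2 (chr1:79434669-79440120, - strand) encodes secretogranin II, the precursor of secretoneurin. It was at 1641, 1340, 829 and 1054 CPM in control and at 607, 625, 596 and 548.5 CPM in Nav-Tsc2 mice. The 4 Nav-Tsc2 mice were close to one another and all under the lowest control mouse, whereas the control mice spread widely, and Scg2 fell 2.05-fold (log2 fold change -1.03, SE 0.18, adjusted p = 0.00379, edgeR). Chgb (chr2:132781278-132795079, + strand) encodes chromogranin B. It was at 49.1, 44.55, 48.2 and 40.1 CPM in control and at 73.6, 71.1, 61.1 and 65.2 CPM in Nav-Tsc2 mice. The Chgb groups were each narrow and did not overlap, and Chgb rose 1.49-fold (log2 fold change 0.57, SE 0.10, adjusted p = 0.00430, edgeR).

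Chga (chr12:102554969-102565028, + strand), which encodes chromogranin A, was at 40.5, 46.5, 24.4 and 32.8 CPM in control and at 28.4, 31.4, 32.3 and 31.8 CPM in Nav-Tsc2 mice. The Nav-Tsc2 mice lay inside the control range, at a log2 difference of -0.22 (SE 0.18, adjusted p = 0.452, edgeR). Scg3 (chr9:75643189-75684056, - strand) encodes secretogranin III, which tethers other granins to the cholesterol-rich vesicle membrane. It was at 425, 471, 1227 and 963 CPM in control and at 909, 1143, 922 and 777 CPM in Nav-Tsc2 mice. Control males were under and control females around or over the Nav-Tsc2 mice, and over all 8 mice Scg3 was not called (log2 difference 0.28, SE 0.32, adjusted p = 0.589, edgeR).

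**Figure D2:**
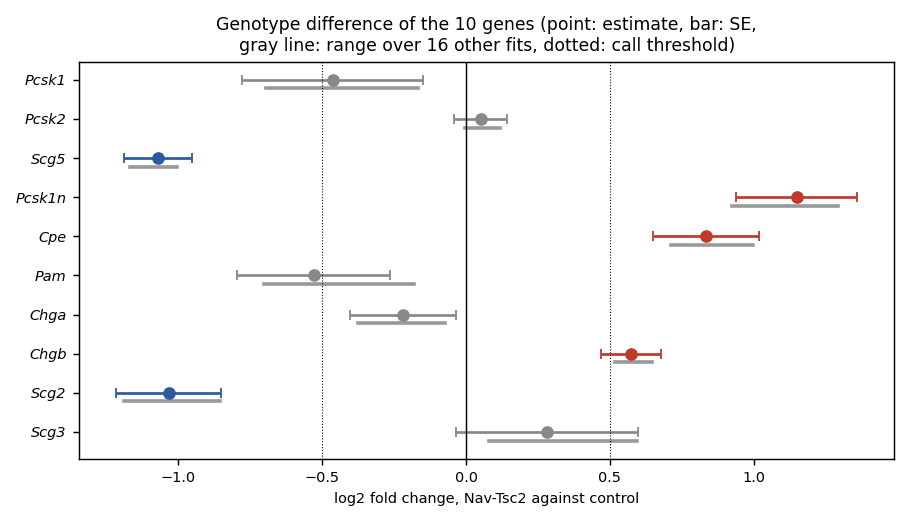
Log2 fold change of Nav-Tsc2 against control (horizontal axis) for the 10 genes, with its SE as a bar, the range over 16 other fits as a gray line below, and the call thresholds of 0.5 and -0.5 as dotted lines. The ranges of Scg5, Scg2, Pcsk1n, Cpe and Chgb lay wholly beyond a threshold, while those of Pcsk1 and Pam crossed -0.5 and that of Scg3 crossed 0.5 without a call.

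At the level of single libraries of 100 cells, Scg5 and Pcsk1n stayed separate between genotypes, while Cpe, Chgb and Scg2 overlapped. No library was at 0 for any of the 10 genes, and the lowest count was 104, for Pcsk1. Scg5 lay between 235 and 412 CPM in the 12 control libraries (median 313) and between 122.5 and 179 CPM in the 12 Nav-Tsc2 libraries (median 145), without overlap. Pcsk1n was likewise separate over all 24 libraries, from 15.98 to 34.1 CPM (median 21.5) in control and from 36.9 to 87.7 CPM (median 46.9) in Nav-Tsc2 libraries. For Cpe 10 and for Chgb 8 of the 12 Nav-Tsc2 libraries were above every control library. For Scg2 4 of the 12 were below every control library. Libraries of a mouse are not independent replicates, so these counts are a description. The share of all genes that were as separate over single libraries was not counted.

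Pcsk1 was the least even gene between pools of the same mouse. In control its libraries ran from 6.83 to 182 CPM, and the coefficient of variation between the 3 libraries of a mouse averaged 71.0% in control and 41.7% in Nav-Tsc2 mice. For Scg5 the same measure was 10.7% and 9.26%, for Cpe 20.1% and 9.15%, and for Scg2 29.4% and 12.4%. Between mice, the coefficient of variation of Scg3 was 50.5% in control and 16.2% in Nav-Tsc2 mice, the widest of the 10 genes in control.

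**Figure D3:**
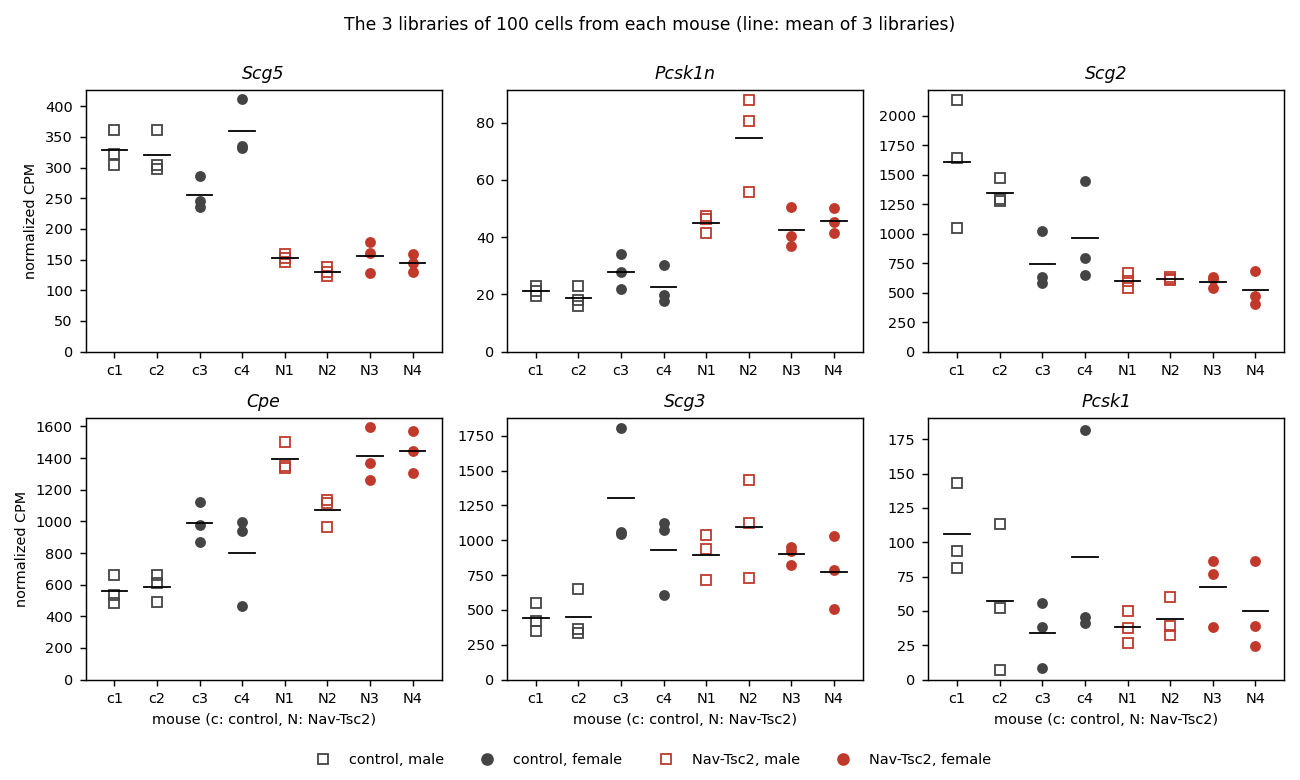
Normalized CPM (vertical axes, starting at 0) in each of the 3 libraries of 100 cells from control mice (c1 to c4, gray) and Nav-Tsc2 mice (N1 to N4, red) for 6 of the genes, with males as open squares, females as filled circles and a line at the mean of each mouse. Scg5 and Pcsk1n did not overlap between genotypes over all 24 libraries, whereas single libraries of Pcsk1 in control ran from 6.83 to 182 CPM. The share of all genes without overlap over the libraries was not counted.

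Levels were compared between genes per kb of exon. In control mice Scg2 was first at 483.5 ± 140 CPM per kb, followed by Cpe at 284 ± 79.4, Scg3 at 282 ± 142 and Scg5 at 200 ± 27.7 (CPM per kb, SD, n = 4), and the ranges of these neighbours overlapped. A gap separated Scg5 from Pcsk2 at 22.3 ± 2.49 CPM per kb, and the remaining genes were lower, down to Pcsk1n at 10.5 ± 2.12 CPM per kb. In Nav-Tsc2 mice Cpe was first at 505 ± 59.4, then Scg3 at 342.5 ± 55.5, Scg2 at 236 ± 13.0 and Scg5 at 95.1 ± 9.57 (CPM per kb, SD, n = 4), and none of these neighbours overlapped. Scg2 thus went from the first to the third place. Pcsk1n went from the last place to a level of 23.2 ± 6.72 CPM per kb, which overlapped with Chgb at 24.7 ± 2.07 and Pcsk2 at 23.1 ± 1.01 CPM per kb. Chga, Pam and Pcsk1 were the lowest in Nav-Tsc2 mice and overlapped as neighbours, with Pcsk1 at 9.05 ± 2.35 CPM per kb.

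Ratios of read counts within a mouse set each partner beside its convertase, and the granins beside each other, without any scaling between libraries. Scg5 reads per Pcsk2 read were 2.09, 1.84, 1.24 and 2.06 in control and 0.863, 0.683, 0.952 and 0.779 in Nav-Tsc2 mice. Every control mouse had more Scg5 than Pcsk2 reads and every Nav-Tsc2 mouse fewer. The log2 difference was -1.12 (two-sided exact permutation test, p = 0.0286, adjusted 0.114 over 4 ratios). This unadjusted p is the smallest that 4 mice against 4 allow. Reads are not corrected for exon length (1.569 kb for Scg5, 7.91 kb for Pcsk2), so a ratio of 1 does not mark equal transcript levels. Per kb of exon, Scg5 stayed above Pcsk2 in Nav-Tsc2 mice, at means of 95.1 and 23.1 CPM per kb. Pcsk1n reads per Pcsk1 read were 0.196, 0.344, 0.843 and 0.267 in control and 1.22, 1.69, 0.598 and 0.816 in Nav-Tsc2 mice. Control mouse 3 fell among the Nav-Tsc2 mice, and the log2 difference was 1.51 (exact permutation p = 0.0857, adjusted 0.114).

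Chga reads per Chgb read were 0.824, 1.04, 0.505 and 0.817 in control and 0.386, 0.442, 0.528 and 0.489 in Nav-Tsc2 mice. Again control mouse 3 lay among the Nav-Tsc2 mice, at a log2 difference of -0.75 (exact permutation p = 0.0571, adjusted 0.114). Pcsk1 reads per Pcsk2 read differed by -0.44 on the log2 scale (exact permutation p = 0.371, adjusted 0.371). No ratio passed an adjusted p of 0.05. With 4 mice against 4, a single ratio at the smallest possible p cannot pass after adjustment over 4 ratios. This outcome therefore does not show that the ratios were alike between genotypes.

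**Figure D4:**
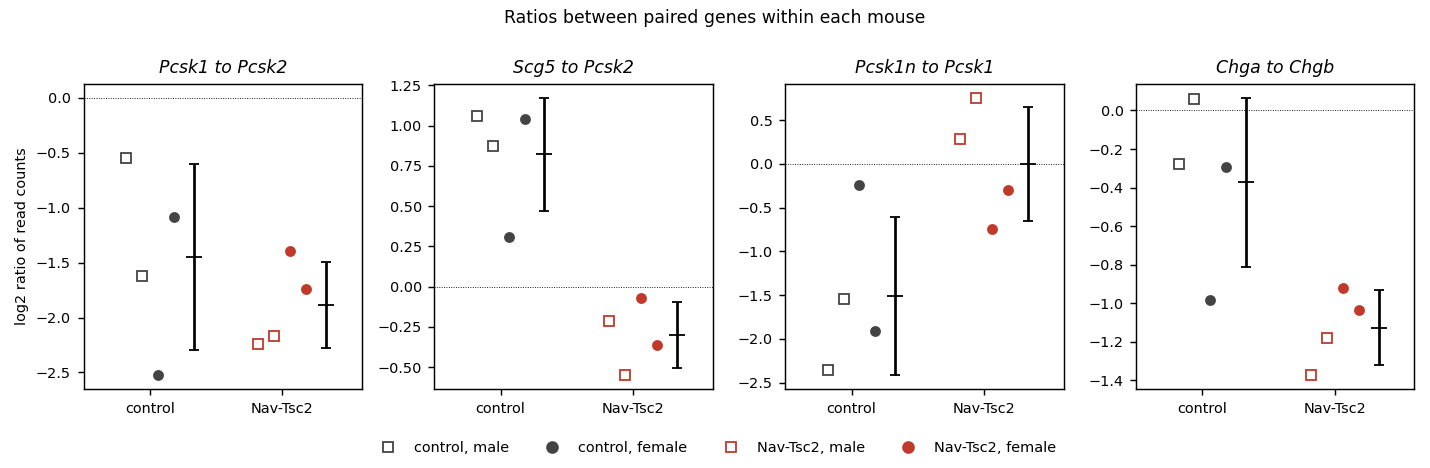
Log2 ratio of read counts between paired genes in each mouse (vertical axes, dotted line at 0, where the 2 counts are equal), control in gray and Nav-Tsc2 in red, males as open squares and females as filled circles, with the mean and SD of 4 mice. The ratio of Scg5 to Pcsk2 lay above 0 in the 4 control mice and below 0 in the 4 Nav-Tsc2 mice, and the other 3 ratios overlapped between genotypes. Counts are not corrected for exon length, so the line at 0 does not mark equal transcript levels.

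Within sexes, each with 2 mice per genotype, Scg5 and Scg2 were below and Pcsk1n, Cpe and Chgb above control in males and in females alike. For these 5 genes this had to be so, because all Nav-Tsc2 mice lay beyond all control mice. It is therefore no separate evidence. In males all 10 genes were without overlap, 5 below (29.0% of all genes) and 5 above (32.8% of all genes). In females 3 were below (25.1% of all genes), 3 above (27.8% of all genes) and 4 overlapped. The log2 differences in males and females were -1.18 and -0.94 for Scg5, -1.27 and -0.71 for Scg2, 1.51 and 0.75 for Pcsk1n, 1.11 and 0.62 for Cpe, and 0.63 and 0.52 for Chgb. Pam differed by -0.80 in males and -0.06 in females, and Pcsk1 by -0.95 and 0.19. Chga differed by -0.54 in males and 0.18 in females, and Pcsk2 by 0.17 and -0.05. Pcsk1, Chga and Pcsk2 thus had opposite signs in the sexes, with overlap between genotypes in females.

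Scg3 was the 1 gene of the 10 with opposite directions and no overlap in either sex. It averaged 448 CPM in control and 1026 CPM in Nav-Tsc2 males, and 1095 CPM in control and 849 CPM in Nav-Tsc2 females. Nav-Tsc2 males were above control males and Nav-Tsc2 females below control females, each without overlap, a pattern held by 2.06% of all genes. The reverse pattern, below in males and above in females, was held by 1.74% of all genes and by none of the 10. The genotype difference of Scg3 was 1.56 larger in males on the log2 scale (SE 0.23, unadjusted p = 0.00017 in edgeR's quasi-likelihood test of the interaction), which was not called at an adjusted p of 0.128. DESeq2 gave an adjusted p of 1.01e-07, and over all alternatives the adjusted p ran from 1.81e-15 to 0.443. With edgeR 0 of the 10 genes had an adjusted interaction p under 0.05 (0.00582% of all genes), 6 had an unadjusted p under 0.05 (9.22% of all genes), and with DESeq2 1 gene had an adjusted p under 0.05. Without the low-count filter the interaction of Pam, Pcsk1 and Scg3 passed in edgeR. For DESeq2 and for the fit without the filter, the share of all genes that passed was not counted.

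Summed markers of nociceptor types differed between control males and control females. The summed peptidergic markers were at 18060 and 17400 CPM in the control males 1 and 2 and at 7514 and 8013 CPM in the control females 3 and 4, beside 5469, 5928, 3284 and 4493 CPM in Nav-Tsc2 mice. The summed non-peptidergic markers were at 604 and 566 CPM in control males and at 1891 and 1576 CPM in control females, beside 1908 to 2049 CPM in the 4 Nav-Tsc2 mice. Scg3, Cpe and Pcsk1n were lower, and Scg2, Pam and Chga higher, in both control males than in both control females. For Pcsk1n the nearest mice were at 21.0 CPM (male 1) and 21.7 CPM (female 4). With 2 mice against 2, such separation is common by chance, and the share of all genes that showed it was not counted. Pcsk1, Pcsk2, Scg5 and Chgb overlapped between control males and control females. Calca made up most of the mean peptidergic sum in control mice. Of the 9 peptidergic markers 4 were called lower and 1 higher, and of the 9 non-peptidergic markers 0 were called. Sums for low-threshold C-fiber markers lay between 270 and 752 CPM in control and between 483 and 1906 CPM in Nav-Tsc2 mice, and for large myelinated neurons between 1411 and 2175 and between 1120 and 1676 CPM. Endothelial markers (14.1 to 22.0 against 17.9 to 30.9 CPM, 2 of 4 tested called higher), macrophage markers (1.95 to 6.95 against 7.76 to 19.7 CPM, 1 of 5 tested called higher), fibroblast markers (73.1 to 236.5 against 121 to 196 CPM) and red blood cell markers (1.63 to 2.80 against 0.473 to 0.672 CPM, with Hbb-bt listed at 0 in all mice) were low beside the neuronal sums. The part of cell composition in the values of the 10 genes was not tested.

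The other genes of the pathway were described by lists. The counts of each list stand beside 8.00% of all genes tested called lower and 9.12% called higher. Of 15 tested processing enzymes outside the 10 genes, 1 fell and 2 rose, with a median log2 fold change of 0.25. Ctsl, cathepsin L, a protease that can also cut precursors inside vesicles, rose from 1263 ± 126.5 to 1974 ± 331 CPM (SD, n = 4, log2 fold change 0.64, adjusted p = 0.00678, edgeR), although 26.8% of its exon length is shared with other genes. Qpct, which cyclizes N-terminal glutamine to pyroglutamate, rose from 20.1 ± 12.7 to 48.4 ± 9.99 CPM (adjusted p = 0.0419, edgeR), a call that 8 of 16 other fits made, while Tpst1, a tyrosine sulfotransferase, fell from 22.9 ± 1.56 to 13.3 ± 1.08 CPM (SD, n = 4, adjusted p = 0.00235, edgeR). Without control mouse 2, or without any single one of the Nav-Tsc2 mice, 1 processing enzyme was called higher.

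Of the 6 genes listed for the handling of copper and ascorbate, 2 rose and 4 were not called, with a median log2 fold change of 0.47. The amidating enzyme depends on both, but the list is not limited to genes that serve this enzyme. The copper chaperone Atox1 rose from 293 ± 24.8 to 441 ± 21.0 CPM (log2 fold change 0.59, adjusted p = 0.00119, edgeR), and the ascorbate transporter Slc23a2 rose from 19.7 ± 2.54 to 34.8 ± 4.20 CPM (SD, n = 4, log2 fold change 0.82, adjusted p = 0.00330, edgeR). Pam itself was not called, as given above.

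Of 15 tested peptide-degrading enzymes, 1 fell and 3 rose, at a median log2 fold change of 0.001. Ecel1, a neprilysin-family protein of injured neurons, rose from 1.602 ± 0.831 to 256.5 ± 17.8 CPM (log2 fold change 7.32, adjusted p = 6e-06, edgeR). Dpp7, a dipeptidyl peptidase of lysosomes and vesicles, rose from 40.1 ± 3.02 to 122 ± 18.7 CPM (adjusted p = 4.9e-05, edgeR) and Nln, neurolysin, from 6.47 ± 2.36 to 16.3 ± 2.63 CPM (adjusted p = 0.00682, edgeR). Ece2 fell from 55.3 ± 5.62 to 34.7 ± 2.12 CPM (SD, n = 4, adjusted p = 0.00198, edgeR), with 57.5% of its exon length shared with another gene on the same strand. Without control mouse 4, 3 genes of this list were called lower.

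Of 29 genes of dense-core vesicle biogenesis and membrane, 4 fell and 2 rose (median log2 fold change 0.02). Vgf, whose product is stored and cut like a granin, rose from 6.97 ± 3.01 to 25.0 ± 4.23 CPM (adjusted p = 0.00335, edgeR), and Ap3b2, a neuronal subunit of the AP-3 adaptor, rose from 130 ± 15.7 to 239 ± 26.2 CPM (adjusted p = 0.000841, edgeR). Resp18, a luminal protein of the regulated secretory pathway, fell from 348 ± 99.6 to 105 ± 21.5 CPM (SD, n = 4, log2 fold change -1.72, adjusted p = 0.000674, edgeR). Ica1 fell from 118 ± 22.1 to 68.4 ± 4.72 CPM and Ccdc186, which takes part in vesicle maturation, fell from 35.0 ± 4.63 to 21.4 ± 1.599 CPM (adjusted p = 0.00273 and 0.00443, edgeR). Without control mouse 4, 4 genes of this list were called higher.

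Of 29 tested genes of dense-core vesicle release, 7 fell and 2 rose, with a median log2 fold change of -0.28. The SNARE protein Snap25 fell from 4402 ± 645 to 2051 ± 205.5 CPM (log2 fold change -1.10, adjusted p = 0.000332, edgeR). Complexin 2, encoded by Cplx2, fell from 154 ± 44.5 to 33.9 ± 10.4 CPM (log2 fold change -2.18, adjusted p = 0.000481, edgeR) and the vesicle GTPase Rab3d from 125 ± 20.3 to 70.3 ± 11.8 CPM (SD, n = 4, adjusted p = 0.00430, edgeR). The calcium sensors Syt7, from 99.8 ± 49.3 to 210 ± 11.4 CPM, and Syt9, from 102 ± 21.3 to 149.5 ± 16.2 CPM, rose (adjusted p = 0.0324 and 0.0265, edgeR), each in 11 of 16 other fits. The number of release genes called higher was 0 without control mouse 1 or without Nav-Tsc2 mouse 1 or 2, 1 without control mouse 2 or without Nav-Tsc2 mouse 3 or 4, and 4 without control mouse 3.

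Of 24 tested neuropeptide precursors, the substrates of the pathway, 5 fell and 9 rose, at a median log2 fold change of 0.09. The summed level of the list was 15300 ± 5591 CPM in control and 9821 ± 1331 CPM in Nav-Tsc2 mice (SD, n = 4). The genotypes overlapped in this sum. It was 20460 and 19820 CPM in control males 1 and 2, and 10320 and 10610 CPM in control females 3 and 4. Nav-Tsc2 mice 1 to 4 were at 11350, 10520, 8657 and 8756 CPM. Calca, the CGRP precursor, made up most of the control sum and fell from 10160 ± 4518 to 2557 ± 616 CPM (log2 fold change -1.99, adjusted p = 0.00215, edgeR). The neuromedin B precursor Nmb fell from 263 ± 19.3 to 122 ± 23.4 CPM (adjusted p = 0.00054, edgeR), and the somatostatin precursor Sst fell from 73.1 ± 51.3 to 0.133 ± 0.101 CPM (SD, n = 4, adjusted p = 0.000144, edgeR), where Nav-Tsc2 mice held between 1 and 14 reads. The neurotensin precursor Nts rose from 72.5 ± 38.3 to 2012 ± 835 CPM (adjusted p = 0.000505, edgeR), Ucn, the urocortin precursor, from 0.162 ± 0.109 to 40.2 ± 30.0 CPM (adjusted p = 0.000125, edgeR) and Npy from 0.310 ± 0.306 to 9.20 ± 4.27 CPM (adjusted p = 0.00125, edgeR).

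Calcb, at 2197 ± 157 and 1575 ± 248 CPM, had a log2 difference of -0.48 (adjusted p = 0.0172, edgeR) just short of the fold threshold. Tac1, the substance P precursor, was at 1705 ± 1136 and 1441 ± 549.8 CPM (adjusted p = 0.760, edgeR) and Adcyap1, the PACAP precursor, at 97.5 ± 65.4 and 82.7 ± 26.6 CPM (SD, n = 4, adjusted p = 0.722, edgeR), with overlap between genotypes. Without Nav-Tsc2 mouse 2, 5 precursors were called higher, and without Nav-Tsc2 mouse 4, 3 were called lower. Over the 6 lists 18 genes fell and 20 rose, beside 8.00% and 9.12% of all genes tested. Without Nav-Tsc2 mouse 2, 13 genes of the lists rose.

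**Figure D5:**
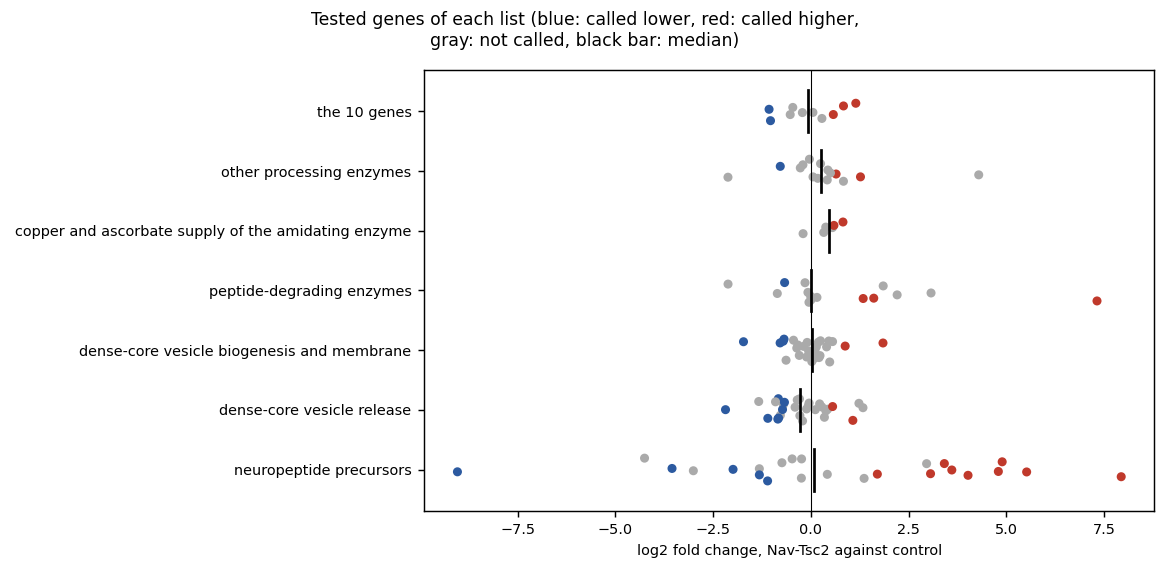
Log2 fold change of Nav-Tsc2 against control (horizontal axis) for each tested gene of the 10 genes and of 6 lists of related genes (rows), in blue where called lower, in red where called higher and in gray where not called, with the median as a black bar; heights within a row carry no meaning. The medians ran from -0.28 for dense-core vesicle release to 0.47 for copper and ascorbate supply, and the 10 genes lay between -1.07 and 1.15.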

How the data were processed

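RNA from sorted L4 DRG cells was amplified with a SMARTer kit and sequenced as single reads. Per the labels, STAR (mm10) and HTSeq were used by the authors to make the count values, which were deposited as raw counts for each gene in each library. Versions and the strand setting are not given in the sources used here. A table of the authors' DESeq2 results (normalized counts, fold changes and p-values) was not used. Between 47.6% and 55.9% of each library's total was assigned to no gene and stayed out of library sizes and tests.

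Identifiers were matched to symbols, and to coordinates, in the GENCODE annotation of GRCm38. The 3 libraries of each mouse were added up, filtered with filterByExpr, scaled by TMM and tested with edgeR 4.0.16 (quasi-likelihood, R 4.3.3), which was tested on simulated data. The SE was taken from the log2 fold change and F. Ratios were tested by exact permutation over 8 mice. The alternatives were DESeq2 1.42.0, its size factors in edgeR, upper-quartile scaling, a limma 3.58.1 fit of the 24 libraries in which the mouse was a random effect, libraries of equal weight, a covariate for sex, a replicate block, keeping genes of low count, leaving out each mouse, and no fold threshold. Reads were amplified without molecular identifiers, so the spread between mice was used in place of counting intervals.

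The genes and lists were chosen with earlier results of these data known. The text names the 10 genes and Tsc2, up to 3 called genes with the smallest adjusted p in each direction of each pathway list, and Calca, Calcb, Tac1 and Adcyap1. Scn10a and Hbb-bt, which are markers, were named after their values were seen.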

Additional observations from a re-analysis of the deposited data

Results flagged for a closer look

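Nav-Tsc2 replicate 2 held 72.6 CPM of Pcsk1n, while the other 3 Nav-Tsc2 mice lay between 40.0 and 45.5 CPM, a gap of 0.831 of the range of the group. It was the 1 outlying mouse among 28 sets of 4 values examined, for which chance alone gives about 1.4. Without it Pcsk1n was still called higher, at a log2 fold change of 0.92.

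The genotype difference of Scg3 was 1.56 larger in males than in females on the log2 scale. Both Nav-Tsc2 males were above both control males and both Nav-Tsc2 females were below both control females. The test of this difference gave an adjusted p of 0.128 with edgeR's quasi-likelihood test and 1.01e-07 with DESeq2, and it passed in edgeR without the low-count filter at an adjusted p of 1.81e-15. The call thus depended on the tool and on the filter, with 2 mice per sex and genotype.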

How the results depend on the processing

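The 10 genes had 2 calls lower and 3 higher in every alternative, also with each mouse left out. The only reversal of sign was Pcsk2, which was not called and whose log2 difference ran from -0.0036 without control replicate 1 to 0.119 without control replicate 3. For the pathway lists, leaving out each mouse gave 15 to 19 calls lower and 13 to 23 higher, and over all genes 995 to 1577 lower and 1150 to 1925 higher. The interaction of genotype and sex passed for 1 of the 10 genes with DESeq2 and for 3 without the low-count filter. The share of all genes that passed in these settings was not counted. It passed for 0 of the 10 genes when each mouse was left out. The cause of these differences was not tested. Ratios ranged from -0.80 to -0.14 (Pcsk1 to Pcsk2), -1.29 to -1.04 (Scg5 to Pcsk2), 1.23 to 1.93 (Pcsk1n to Pcsk1) and -0.96 to -0.61 (Chga to Chgb) over the mice left out. Counts of calls in single pathway lists moved by over 1.5 times in 25 cases, among them 3 peptide-degrading enzymes lower with DESeq2, 4 vesicle biogenesis genes higher with no fold threshold, and 3 precursors lower and 5 higher when the mouse was a random effect. Across the genes tested the median log2 fold change lay between -0.02 and 0.09 in every fit.

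No pairing of mice by equal replicate numbers was detected. Deviations from the genotype mean correlated at 0.0293, 0.0636, 0.0109 and 0.0276 for replicates 1 to 4 over 17178 genes. Such values cannot show that mice of equal number were unrelated or handled apart, and the main tests treated the mice as unpaired. With the replicate block the 10 genes kept 2 calls lower and 3 higher, the lists had 15 lower and 21 higher, and all genes 1116 lower and 1329 higher. Every mouse held at least 1023 reads of each of the 10 genes.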

Other observations

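The control mice varied more than the Nav-Tsc2 mice in most of these genes. The coefficient of variation between mice was larger in control for 9 of the 10 genes, all but Pcsk1n, and for 69.3% of 17146 genes in all, with a median over all genes of 27.3% in control and 18.3% in Nav-Tsc2 mice. Between the 3 libraries of a mouse it was larger in control for 10 of the 10 genes and for 82.1% of 15540 genes in all, with medians of 37.7% and 24.9%. These shares are descriptions across genes, which are not independent replicates, and the wider spread of the control libraries was therefore not particular to the 10 genes.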
